A study of Mus musculus with 12 samples.

Results

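Mouse bone marrow-derived mast cells (BMMCs) transcribed 135 long intergenic noncoding RNA (lincRNA) genes at or above a set level, and these genes are described here across 4 treatment groups. The members were chosen by their level: genes whose every listed isoform carries a lincRNA biotype, with isoform FPKM summed per gene at 2 or more in at least 3 of the 12 libraries. FPKM scales fragments to transcript length and to library size. The table held 28852 genes, of which 1432 had only lincRNA isoforms and 135 met the level rule. That the members are expressed is therefore a condition of the selection and not a result, and their levels are given as a description. The level just inside the rule was 2.02 FPKM (Gm39459, third-highest library) and the level just outside it was 1.97 FPKM (Gm16001).

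The cells were BMMCs grown from the femurs of BALB/c mice in medium with IL-3 and SCF, the cytokines that drive bone marrow precursors to mast cells. Each of 4 groups had 3 libraries: the blank group (control), the SiO2 group (silica particles of nanometre size), the DNP-HSA group (a hapten-coupled albumin that cross-links DNP-specific IgE on its receptor) and the DNP-HSA+SiO2 group (both agents). One library of each group has no number in its title and is called unnumbered here, and the others carry the number 1 or 2. The sources used here do not give the dose, the exposure time or any IgE sensitization of these cells. Nothing says that the libraries came from separate cultures, so p-values measure a spread between libraries whose source is not given. Part of this spread recurred across groups. Deviations from the group mean correlated at 0.58 to 0.60 between same-numbered blank and SiO2 libraries. Between blank and DNP-HSA they correlated at 0.68 for the unnumbered pair and at 0.54 with numbers 1 and 2 crossed. The main test below has the group as its only term, so this shared spread stays in its error.

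LincRNAs are transcribed by RNA polymerase II from DNA between coding genes, and most are spliced and polyadenylated but not translated. Several of the best known act in the nucleus: Malat1 is found in nuclear speckles, Neat1 is the scaffold of paraspeckles, and Xist coats the inactive X chromosome. Others serve as hosts from which microRNAs or small nucleolar RNAs are cut, and many start from the same promoter region as a neighbouring coding gene, on the opposite strand. Mast cells answer antigen on their IgE receptor with granule release and with a wave of immediate early, cytokine and feedback genes, and the position of lincRNAs beside such genes is one reason to describe them by their neighbours.

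The sequences of the members on which the comparisons below turn are given first. They were taken from RefSeq (GRCm38.p6), which held a promoter for 62 of the 135 members, defined as 250 bases before to 50 bases after the start. Gm46210 was called in 2 comparisons, and its promoter window (chr10:9901063-9901362, plus strand) covers the whole gap to its divergent neighbour Stxbp5. The capitals mark its match to the EGR motif, searched as GCGNGGGCG on both strands.
Gm46210: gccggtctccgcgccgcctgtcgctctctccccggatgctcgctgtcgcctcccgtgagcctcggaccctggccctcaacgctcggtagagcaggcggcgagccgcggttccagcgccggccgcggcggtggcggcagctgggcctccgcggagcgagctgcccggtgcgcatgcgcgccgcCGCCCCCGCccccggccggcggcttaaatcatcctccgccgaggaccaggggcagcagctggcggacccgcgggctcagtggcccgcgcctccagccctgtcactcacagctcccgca
Gm50217 was the other called member. RefSeq places its first start 116 bases from the start in the table (chr19:43920339-43920638, plus strand), and no searched motif was found in this window.
Gm50217: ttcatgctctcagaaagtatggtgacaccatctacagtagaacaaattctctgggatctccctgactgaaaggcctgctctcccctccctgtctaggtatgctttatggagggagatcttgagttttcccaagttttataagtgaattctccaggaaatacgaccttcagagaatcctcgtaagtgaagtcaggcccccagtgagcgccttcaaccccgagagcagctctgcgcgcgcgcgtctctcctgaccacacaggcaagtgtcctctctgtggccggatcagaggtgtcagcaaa
The EGR letters were found in 5.55% of all 32851 promoters of the same length and in 5 of the 62 members with a promoter. Some members have several promoter windows and were counted if any window matched. The counts of members and the shares of all promoters are therefore on unlike bases. The AP-1 letters TGANTCA were found in 7.81% of all promoters and in 8 members, the CRE letters TGACGTCA in 1.79% and in 4, and the GATA letters AGATAAG in 3.04% and in 2. The NF-kB letters GGGANTTTC (1.11% of all) and the NR4A letters AAAGGTCA (1.51% of all) were found in 0 of the 62. These are matches of letters and not sites.

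Of the 135 members, 11 overlap a microRNA hairpin in whole or in part. A few mature microRNAs of 4 of these genes follow, 5′ to 3′, with the seed (bases 2 to 8) in capitals. Gm26532 lies on chromosome 8 just downstream of the miR-23a, miR-27a and miR-24-2 hairpins, the last of which overlaps its first bases.
mmu-miR-23a-3p: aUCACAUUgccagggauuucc
mmu-miR-27a-3p: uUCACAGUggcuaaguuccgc
mmu-miR-24-3p: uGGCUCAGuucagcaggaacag
Mir142hg (chromosome 11) and Mir17hg (chromosome 14) carry the hairpins that name them. In Mir17hg, miR-17-5p and miR-20a-5p share 1 seed, and miR-19a-3p and miR-19b-3p share another.
mmu-miR-142a-3p: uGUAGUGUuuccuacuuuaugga
mmu-miR-17-5p: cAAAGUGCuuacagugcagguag
mmu-miR-20a-5p: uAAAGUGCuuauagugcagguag
mmu-miR-19a-3p: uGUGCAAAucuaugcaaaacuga
mmu-miR-19b-3p: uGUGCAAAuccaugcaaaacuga
The span of Gm49890 (chromosome 4) holds Mir31.
mmu-miR-31-5p: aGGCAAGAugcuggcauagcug
The libraries were made from poly(A) RNA, so only the host transcripts and not the mature microRNAs were measured.

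The libraries held 55737606 to 76718065 estimated counts, and the members took 0.443% to 1.38% of them. The labelled cell type was checked by its markers: all 10 mast cell markers reached 1 FPKM, with Kit at 852 to 1513 FPKM, Fcer1a at 2311 to 3253 and Cpa3 at 7353 to 9207 across libraries. Of the 12 libraries, 4 stood apart: blank 1, SiO2 1, DNP-HSA 2 and DNP-HSA+SiO2 2. In them the members took 0.443% to 0.626% of counts, against 0.823% to 1.38% in the other 8. Malat1 was at 52.1 to 95.7 FPKM in these libraries and at 213 to 490 in the other 8. Of the 8 macrophage and neutrophil markers, 7 were higher there without overlap, such as Lyz2 at 60.1 to 87.8 against 3.04 to 34.0 FPKM and S100a9 at 9.80 to 12.2 against 0. The exception was Adgre1, at 1.20 to 2.61 FPKM in these libraries and 0.542 to 5.56 in the other 8. The summed level of the 8 ranged from 9.70 to 99.3 FPKM in the blank group, 8.60 to 89.2 in the SiO2 group, 9.08 to 85.2 in the DNP-HSA group and 9.80 to 116 in the DNP-HSA+SiO2 group, and all 8 were above 0 in some library. Each group holds 1 of the libraries that stood apart, and the part of these markers in the members' levels was not tested. In bulk RNA, fewer cells of a type and less RNA per cell cannot be told apart.

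**Figure D1:**
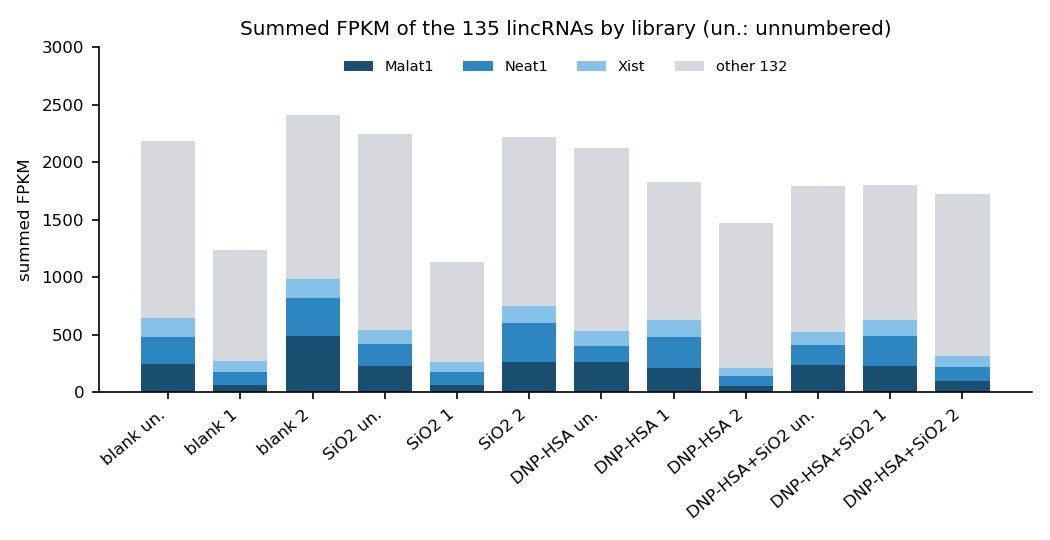
Summed FPKM of the 135 lincRNAs in each library, split into Malat1, Neat1, Xist and the other 132 members. Bars start at 0, and the 3 shortest are SiO2 1, blank 1 and DNP-HSA 2, where the sums are 1136, 1233 and 1470 FPKM.

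Most members were rare transcripts. Their mean over the 12 libraries was 50 FPKM or more in 10 members, 10 or more in 30, and 2 or more in 100. Of the 135, 50 reached 2 FPKM in every library, 98 reached it in libraries of all 4 groups, and 1 did so in a single group only. A single isoform was listed for 65 members and 24 had a single exon in every isoform. Provisional names prevailed: 75 carried a Gm symbol and 33 a RIKEN symbol. Chromosome 5 held 18 of the members (13.3%), against 6.58% of the 12862 genes tested.

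Malat1, Neat1 and Xist led the members and together made up 14.2% to 40.7% of the members' summed FPKM. Malat1 was at 244, 65.2 and 490 FPKM in the blank group (unnumbered, 1 and 2, the order used throughout), 228, 60.0 and 262 in the SiO2 group, 264, 213 and 52.1 in the DNP-HSA group and 237, 231 and 95.7 in the DNP-HSA+SiO2 group. Every group held 1 low library, and the groups overlapped. Neat1 ranged from 91.8 to 339 FPKM with the same libraries at the bottom, and its long isoform of 20771 bases, the form that builds paraspeckles, was assigned 41.1% to 50.8% of the gene's FPKM in every library. The shorter isoforms lie within the span of the long one, so this share depends on how reads were divided. Xist was at 65.3 to 170 FPKM, while 4 genes of the Y chromosome (Ddx3y, Eif2s3y, Kdm5d and Uty) stayed at or below 0.254 FPKM.

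Several of the other high members share sequence with another gene, so that their level depends on how reads were divided. At 95% identity or more over at least 50% of a transcript, 17 of the members matched a gene elsewhere in the genome and 13 matched a gene that overlaps them. Rps18-ps4 overlaps Gm10260 on the other strand and matches Rps18, a ribosomal protein gene, in reverse over 50.5% of a transcript. Its mean was 120 FPKM, but it was listed at 0 in 7 libraries and at 107 to 392 in the other 5, which came from all 4 groups. Gm10076 (19.8 to 102 FPKM) matched Rpl41, a ribosomal protein gene, over its whole length. Gm47283 lies on the Y chromosome in the table and was at 38.7 to 64.2 FPKM in all libraries, although the 4 Y-linked genes above were near 0. An Erdr1 transcript is 99.3% identical to it over 441 bases, and Erdr1 was at 31.2 to 68.8 FPKM. GENCODE lists both genes as protein-coding, although every isoform in the table is marked lincRNA.

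**Figure D2:**
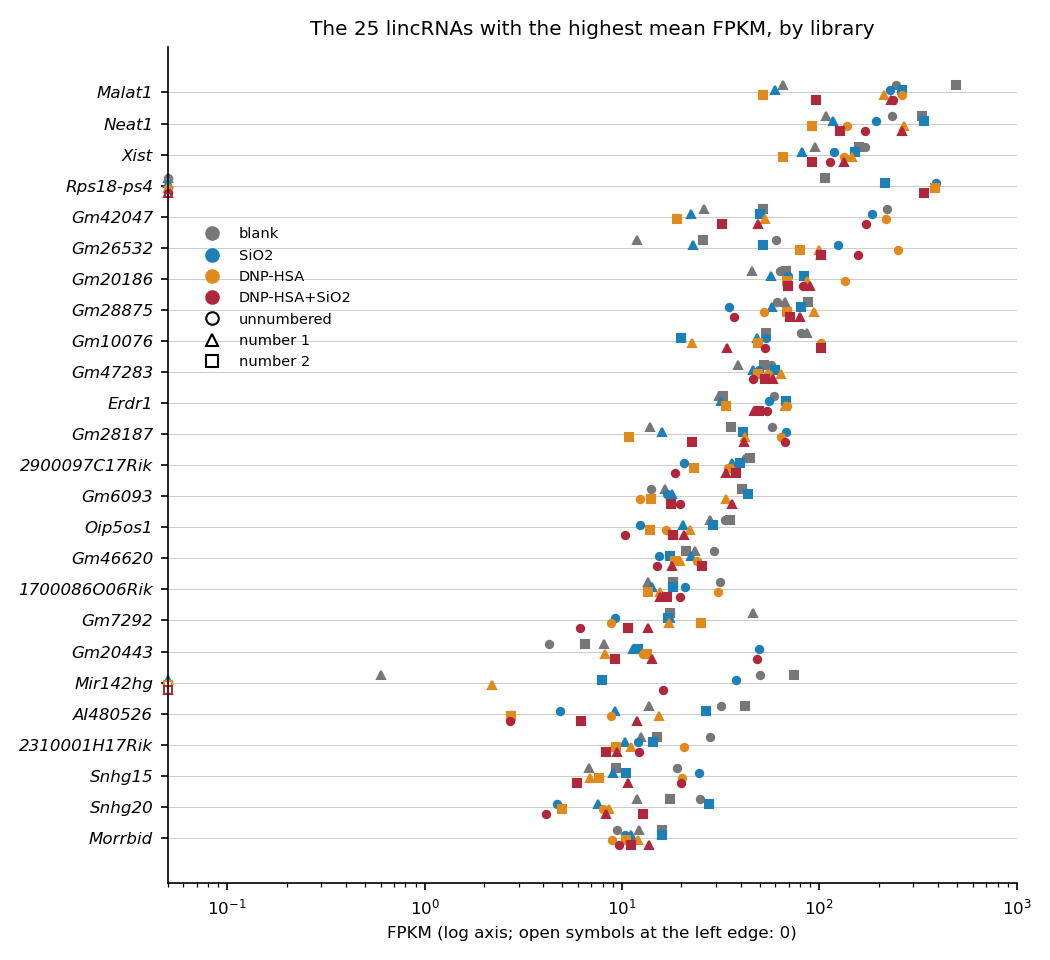
FPKM (log axis) of the 25 members with the highest mean in each of the 12 libraries, coloured by group, with symbols for the unnumbered libraries and for numbers 1 and 2. Open symbols at the left edge are values of 0, which occur for Rps18-ps4 and Mir142hg.

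The question put to the data was whether antigen, particles or both changed the level of the members. The quasi-likelihood F-test of edgeR was run over all 12 libraries with TMM scaling (library sizes set so that most genes stay level), 12862 genes passed the filter of 1 FPKM in 3 libraries, and p-values were adjusted over all of them by the Benjamini-Hochberg method. All 135 members were tested. At an adjusted p of 0.05, 0 of 135 members were called for SiO2 vs blank (0.0622% of all genes tested were called), 1 for DNP-HSA vs blank (0.218% of all genes) and 2 for DNP-HSA+SiO2 vs blank (0.575% of all genes), and these calls were all of higher levels. For DNP-HSA+SiO2 vs DNP-HSA, 0 members and 0% of all genes were called. The interaction, which asks whether SiO2 changed a gene by another amount with DNP-HSA than without it, called 0 members (0.0233% of all genes), and the test for any difference among the 4 groups also called 0 members (0.0466% of all genes).

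The comparisons with blank share its 3 libraries. The level rule also admits members that reach 2 FPKM only or mainly in treated libraries, or only or mainly in blank libraries. The shares that follow therefore describe the members and support nothing about them. At an unadjusted p under 0.05, 17 members (12.6%) differed for SiO2 vs blank against 8.03% of all genes, 19 (14.1%) for DNP-HSA vs blank against 7.38%, and 31 (23%) for DNP-HSA+SiO2 vs blank against 12%. For DNP-HSA+SiO2 vs DNP-HSA these were 3 members (2.22%) against 0.645%, for the interaction 7 (5.19%) against 2.08%, and for any difference 15 (11.1%) against 6%. Libraries of the groups did not overlap, on the FPKM and the TMM scale alike, for 14 members (10.4%) in SiO2 vs blank against 10.5% of all genes, 30 (22.2%) in DNP-HSA vs blank against 10.6%, 33 (24.4%) in DNP-HSA+SiO2 vs blank against 12.9%, and 2 (1.48%) in DNP-HSA+SiO2 vs DNP-HSA against 0.894%. DESeq2, run as an alternative, called 6 members for SiO2 vs blank (2.16% of all genes with an adjusted p), 8 for DNP-HSA vs blank (2.46%), 13 for DNP-HSA+SiO2 vs blank (4.62%), 0 for DNP-HSA+SiO2 vs DNP-HSA (0.0312%), 2 for the interaction (0.281%) and 8 for any difference (2.68%). Where a member is said below to have passed or not, the edgeR test is meant unless DESeq2 is named.

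The changes of the members went both ways. The median log2 change of the members was -0.04 for SiO2 vs blank (all genes -0.01), -0.14 for DNP-HSA vs blank (all genes 0.01) and -0.04 for DNP-HSA+SiO2 vs blank (all genes -0.01). The members were more spread out: 21, 23 and 33 of the 135 changed by more than 2-fold in either direction in these comparisons (15.6%, 17% and 24.4%), against 7.31%, 7.41% and 10.5% of all genes. Low counts spread fold changes, and the part of level in this was not tested. On the FPKM scale the median of all genes itself was -0.27, -0.25 and -0.35 (log2, with 0.1 FPKM added), so folds are given on the TMM scale and FPKM values are given as deposited.

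**Figure D3:**
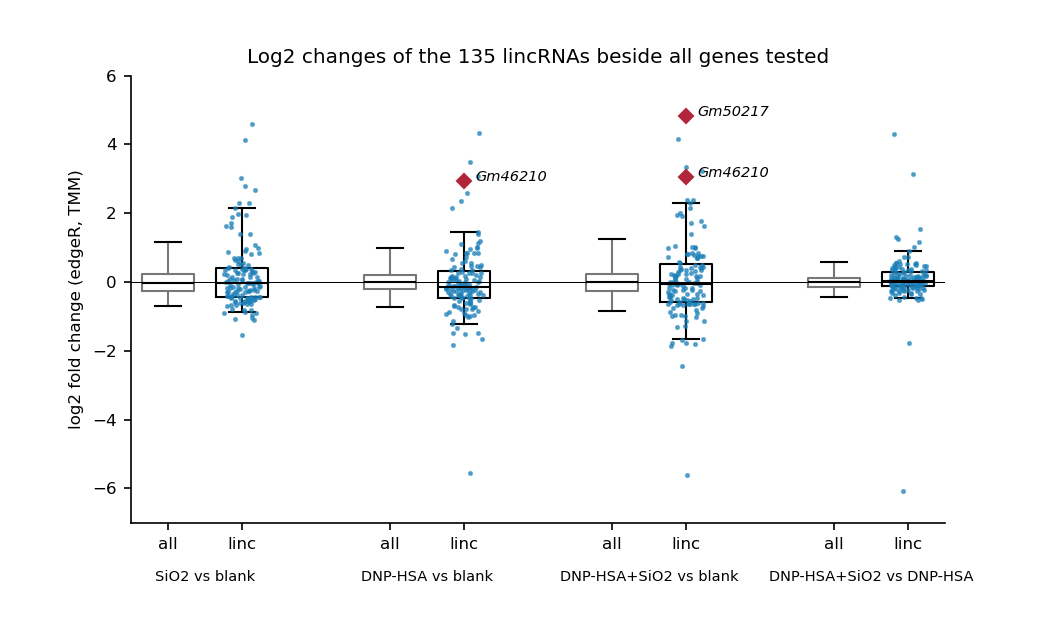
Log2 fold changes (edgeR, TMM) of all 12862 genes tested (grey boxes) and of the 135 members (points and black boxes) in 4 comparisons. Boxes span the quartiles, whiskers the 5th to 95th percentile, and diamonds mark the called members, Gm46210 in DNP-HSA vs blank (2.93) and Gm46210 and Gm50217 in DNP-HSA+SiO2 vs blank (3.05 and 4.82).

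Gm46210 was higher with antigen and with both agents. The table lists a longest transcript of 577 bases, and the gene (ENSMUSG00000112146, chromosome 10, 9901313 to 9918843, plus strand) starts 233 bases from Stxbp5, a gene for a regulator of vesicle fusion, on the other strand. It was at 1.27, 1.21 and 1.12 FPKM in the blank group (1.20 ± 0.071, mean ± SD, n = 3). It was at 5.24, 6.43 and 3.08 FPKM in the SiO2 group (4.92 ± 1.7), at 6.78, 6.36 and 9.91 in the DNP-HSA group (7.68 ± 1.9) and at 7.62, 7.01 and 9.23 in the DNP-HSA+SiO2 group (7.96 ± 1.1). Gm46210 reached 2 FPKM in the 9 treated libraries only, so it is a member through the groups where it was high. All 9 treated libraries lay above all 3 blank libraries, where 46 to 57 estimated counts stood behind each value.

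The log2 change of Gm46210 was 2.93 (SE 0.37, edgeR adjusted p = 0.0137) for DNP-HSA vs blank and 3.05 (SE 0.37, adjusted p = 0.00863) for DNP-HSA+SiO2 vs blank. For SiO2 vs blank it was 2.29 (SE 0.36) and missed the threshold (adjusted p = 0.0622), while DESeq2 (adjusted p = 3.4e-07) and limma on log2(FPKM + 0.1) (adjusted p = 0.0203) called it. Between DNP-HSA+SiO2 and DNP-HSA the log2 difference was 0.12 (SE 0.34, adjusted p = 1), and the interaction was -2.17 (SE 0.49, adjusted p = 0.911), which DESeq2 called (adjusted p = 0.0113). Stxbp5 itself had log2 changes of -0.12, -0.03 and 0.03 in the 3 comparisons with blank. Leaving out any 1 blank library ended both calls (adjusted p = 0.0837 to 0.110 and 0.0595 to 0.0755) at log2 changes of 2.92 to 2.94 and 3.04 to 3.06. They also ended without the 4 unnumbered libraries (adjusted p = 0.0707 and 0.0897), and without blank 1, SiO2 1, DNP-HSA 2 and DNP-HSA+SiO2 2 (adjusted p = 0.537 and 0.195), a choice made after seeing the data.

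Gm50217 was nearly silent in the blank group and higher in all treated libraries. Its gene (ENSMUSG00000118000, chromosome 19, 43920473 to 43927928, plus strand) overlaps Dnmbp, which encodes an activator of the small GTPase Cdc42, on the opposite strand. It was at 0.145, 0.0926 and 0.154 FPKM in the blank group, with 22, 13 and 22 estimated counts. It was at 5.08, 1.64 and 0.944 FPKM in the SiO2 group, 2.43, 1.81 and 2.56 in the DNP-HSA group and 5.08, 2.05 and 1.33 in the DNP-HSA+SiO2 group. The unnumbered library was the highest of its group under SiO2 and under both agents, and no treated library overlapped the blank group. Gm50217 reached 2 FPKM in 5 treated libraries, and 1 FPKM in treated libraries only, so it became a member and was tested only through the groups where it was high.

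The log2 change of Gm50217 was 4.82 (SE 0.82, edgeR adjusted p = 0.0333) for DNP-HSA+SiO2 vs blank, its only call in the edgeR fit without a replicate block over all 12 libraries. It was 4.58 (SE 0.81, adjusted p = 0.0738) for SiO2 vs blank and 4.33 (SE 0.80, adjusted p = 0.0647) for DNP-HSA vs blank. DESeq2 called both (adjusted p = 6.2e-08 and 3.8e-07) and the interaction (-4.12, adjusted p = 0.0136), and DNP-HSA vs blank was also called with the replicate block over all 12 libraries (0.0361) and with limma on log2(FPKM + 0.1) (0.0357). The block matches libraries by number. Between the blank and antigen groups, deviations from the group mean followed the number only for the unnumbered libraries. Dnmbp changed by 0.29 to 0.37 on the log2 scale in the comparisons with blank, with no call. The sources used here do not say whether counting used strand, and without it the reads of both overlapping genes cannot be told apart. The call ended on leaving out any blank library, the unnumbered library or number 1 of the DNP-HSA+SiO2 group (adjusted p = 0.0683 to 0.194), all 4 unnumbered libraries (0.0634), with limma on log2(FPKM + 1) (0.104), or without the 4 libraries that stood apart (0.206). Without the unnumbered libraries the member was instead called for DNP-HSA vs blank (log2 4.38, adjusted p = 0.0426).

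The treated libraries of Gm47599 and Gm32443 also lay above all blank libraries. These members did not pass in edgeR, while DESeq2 called both in all 3 comparisons (adjusted p = 1.5e-05 to 0.00969). Gm47599, on chromosome 10 between Mrpl42 and Socs2, the latter a feedback inhibitor of cytokine receptors, was at 0.873, 2.48 and 0.695 FPKM in the blank group, 7.41, 9.09 and 5.28 in the SiO2 group, 3.47, 8.75 and 15.7 in the DNP-HSA group and 8.81, 10.6 and 10.4 in the DNP-HSA+SiO2 group. Every treated library lay above the blank group. Its log2 changes were 2.68 (SE 0.63, adjusted p = 0.157), 3.08 (SE 0.64, adjusted p = 0.0962) and 3.21 (SE 0.64, adjusted p = 0.0548). Gm32443, on chromosome 12, was at 0.604, 2.04 and 3.32 FPKM in the blank group and at 5.44 to 27.4 FPKM in the 9 treated libraries. Its log2 changes were 3.03, 2.60 and 3.34 (SE 0.75 to 0.77, adjusted p = 0.211, 0.268 and 0.0892).

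Gm26532, the transcript beside the miR-23a, miR-27a and miR-24-2 hairpins, is a single exon of 690 bases and the sixth member by mean level. It was at 60.6, 11.9 and 25.6 FPKM in the blank group, 125, 22.96 and 52.2 in the SiO2 group, 250.5, 99.9 and 79.8 in the DNP-HSA group and 157, 102.5 and 101.5 in the DNP-HSA+SiO2 group. The unnumbered library was the highest of each group, and the SiO2 group overlapped the blank group while the antigen groups did not. Its log2 changes were 1.39 (SE 0.71, adjusted p = 0.682), 2.37 (SE 0.73, adjusted p = 0.330) and 2.29 (SE 0.73, adjusted p = 0.220). With the replicate block over all 12 libraries (adjusted p = 0.0357 and 0.0280) and with DESeq2 (adjusted p = 0.0189 and 0.0176) Gm26532 was called in both antigen comparisons. The limit of the block given for Gm50217 holds here too. Gm20443, on chromosome 17, was at 4.25 to 8.10 FPKM in the blank group and at 8.23 to 49.5 in the treated libraries, the highest being the unnumbered libraries of the SiO2 group (49.5) and of the DNP-HSA+SiO2 group (48.5). Its log2 change was 2.37 (SE 0.79, adjusted p = 0.236) for DNP-HSA+SiO2 vs blank.

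2810455O05Rik was at 3.15, 8.72 and 4.59 FPKM in the DNP-HSA group against 0.0632, 1.36 and 0.308 in the blank group, while the SiO2 group (0.647 to 3.35) and the DNP-HSA+SiO2 group (0.723 to 3.32) each overlapped the blank group. Its log2 change was 3.49 (SE 1.1, adjusted p = 0.323) for DNP-HSA vs blank. 2810455O05Rik reached 2 FPKM only in 5 treated libraries, so it is a member through the groups where it was high. 4833403J16Rik, on chromosome 6, was at 2.23 to 3.39 FPKM in the blank group and at 5.29 to 15.4 in the SiO2 group (log2 1.99, SE 0.64, adjusted p = 0.383). 5033430I15Rik, which was chosen after its values were seen, was at 5.06 to 6.45 FPKM in the blank group and at 8.33 to 13.7 in the treated libraries (log2 1.38, SE 0.31, adjusted p = 0.0798 for DNP-HSA+SiO2 vs blank).

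**Figure D4:**
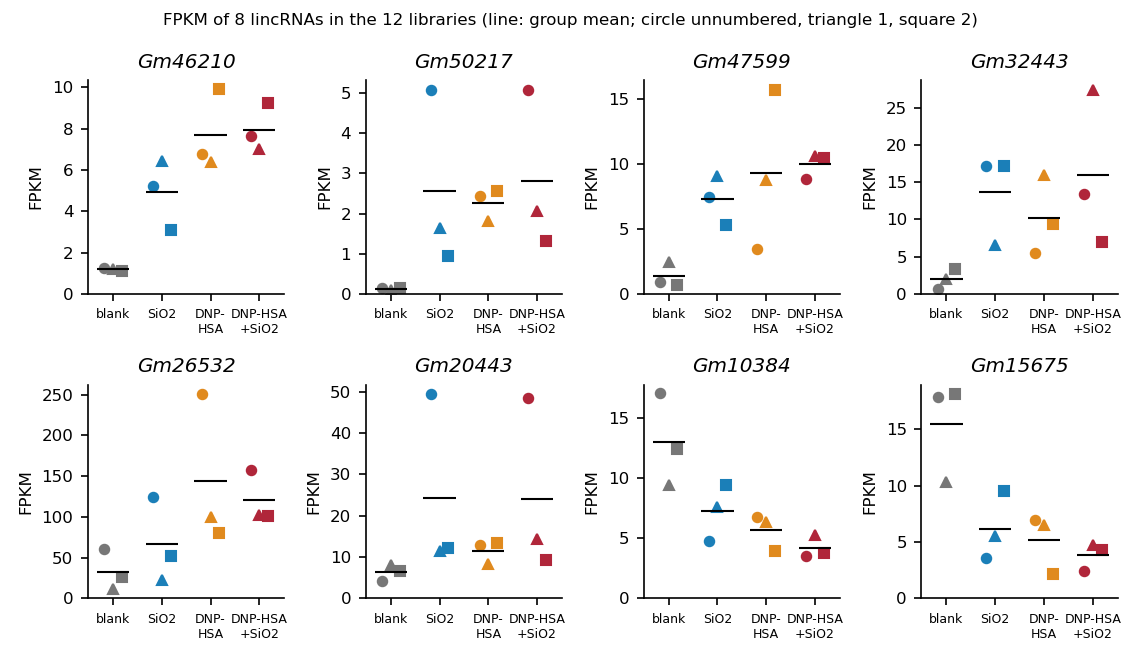
FPKM in the 12 libraries of the 2 called members (Gm46210 and Gm50217), of 4 with higher values that did not pass and of 2 with lower values that did not pass (Gm10384 and Gm15675), 1 panel a gene, axes from 0. Points are libraries (circle unnumbered, triangle number 1, square number 2) and lines are group means. In the first 4 panels every treated library sits above the 3 blank libraries.

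On the lower side edgeR called 0 members in any comparison, while DESeq2 called Gm10384 (adjusted p = 0.00175) and Gm15675 (adjusted p = 0.00569) for DNP-HSA+SiO2 vs blank. Gm15675, on chromosome 1 between Cd55, which protects cells from complement, and Cd55b, was at 17.9, 10.3 and 18.2 FPKM in the blank group, 3.56, 5.52 and 9.50 in the SiO2 group, 6.95, 6.49 and 2.20 in the DNP-HSA group and 2.45, 4.75 and 4.33 in the DNP-HSA+SiO2 group. All treated libraries lay below the blank group in FPKM, but on the TMM scale the SiO2 group overlapped it. Its log2 change was -1.69 (SE 0.43, adjusted p = 0.120) for DNP-HSA+SiO2 vs blank. Gm10384, on chromosome 15, was at 17.1, 9.43 and 12.5 FPKM in the blank group and at 3.56, 5.24 and 3.78 in the DNP-HSA+SiO2 group (log2 -1.28, SE 0.29, adjusted p = 0.0840). BC043934, on chromosome 9, was at 2.89 to 3.65 FPKM in the blank group and at 0.356 to 1.77 in the 9 treated libraries. It reached 2 FPKM in the 3 blank libraries only, so it is a member through the group where it was high. Its log2 changes were -1.54, -1.66 and -1.87 (SE 0.63 to 0.64, adjusted p = 0.246 to 0.550).

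Other members lay below blank without overlap and with an unadjusted p under 0.05. For DNP-HSA vs blank the next by size were Gm43254 (-1.13), 4632404H12Rik (-0.97) and Gm20300 (-0.91). For DNP-HSA+SiO2 vs blank the next by size were Gm20300 (-1.12), E430024I08Rik (-1.12) and 4632404H12Rik (-0.98). The host of Mir191 and Mir425, 4833445I07Rik, was at -0.82 for SiO2 vs blank (2.12 to 2.71 FPKM in the blank group and 0.755 to 1.43 in the SiO2 group). None of these passed (adjusted p = 0.289 to 0.675 for the values given). Gm43254, 4632404H12Rik and 4833445I07Rik reached 2 FPKM in only 4 libraries each, 3 of them blank. Gm20300 reached it in only 3 libraries, at 2.585 and 2.928 FPKM in the blank group and 2.497 in SiO2 2, and in no antigen library. E430024I08Rik reached it in 5 libraries, among them every blank library. All of these genes are therefore members mainly through the group where they were high.

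For DNP-HSA+SiO2 vs DNP-HSA the groups did not overlap in 2 members, neither of which passed. Gm35035, on chromosome 10, was at 0.984, 1.16 and 0.958 FPKM in the DNP-HSA group and at 2.03, 1.26 and 2.10 in the DNP-HSA+SiO2 group (log2 0.90, SE 0.37, adjusted p = 1), and with 1.78 to 2.58 in the blank group and 0.979 to 1.56 in the SiO2 group the blank libraries lay above all SiO2 and DNP-HSA libraries in FPKM, while on the TMM scale the blank and SiO2 groups overlapped. Gm49890, whose span holds Mir31, was at 0.721, 2.50 and 3.72 FPKM in the DNP-HSA group and at 0.00133, 0.0864 and 0 in the DNP-HSA+SiO2 group. It was also listed at 0 in the unnumbered blank library and at 0.0133 and 0.050 in 2 SiO2 libraries, against 2.83 and 3.23 FPKM in the numbered blank libraries, so the blank and SiO2 groups each held high and low libraries. Its fitted log2 change of -6.09 (SE 2.3, adjusted p = 1) depends on these near-zero values. Gm35035 reached 2 FPKM in only 3 libraries, at 2.03 and 2.10 in the DNP-HSA+SiO2 group and 2.58 in the blank group. Gm49890 reached it in 5 libraries, none of them in the DNP-HSA+SiO2 group. Both are thus members partly through the group where they were high.

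The neighbours of the members were read by position, as the nearest protein-coding genes among those tested. Of the 135 members, 11 overlapped such a gene, 60 lay within 10 kb of one, 38 lay between 10 and 100 kb, 25 lay farther away and 1 had none on its chromosome. Of the nearest genes within 100 kb, 54 were on the same strand, 33 were divergent, 12 convergent and 10 overlapped on the opposite strand, and 16 divergent neighbours lay within 1 kb. Across genes, the log2 changes of the members and of their nearest gene within 100 kb (109 pairs) correlated with r = 0.27 for SiO2 vs blank, 0.28 for DNP-HSA vs blank, 0.30 for DNP-HSA+SiO2 vs blank and 0.10 for DNP-HSA+SiO2 vs DNP-HSA. For 7824 pairs of adjacent coding genes within the same distance r was 0.18, 0.14, 0.18 and 0.10. The values of a pair come from the same libraries, genes are not independent replicates, and the difference between both kinds of pair was not tested.

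Among the 88 tested immediate early, cytokine, chemokine and feedback genes, the fit called 7 higher with SiO2, 11 with DNP-HSA and 23 with both agents, and 0 lower. Over all 12862 genes tested it called 8, 28 and 74 in either direction. The 88 genes were listed with earlier results of these data known, so their counts are a description and support nothing. Of the members, 10 had such a gene as a neighbour, 8 of them within 100 kb. A230098N10Rik starts 4315 bases from Il6, which encodes a cytokine of activated mast cells, on the other strand. Il6 ranged from 11.4 to 24.4 FPKM in the blank group and from 82.2 to 1173 in the treated libraries (log2 3.91 to 5.20, adjusted p = 0.0808 to 0.250). A230098N10Rik was at 1.53, 7.42 and 6.95 FPKM in the blank group, 2.13, 6.79 and 5.14 in the SiO2 group, 2.67, 7.75 and 10.0 in the DNP-HSA group and 2.38, 7.23 and 8.14 in the DNP-HSA+SiO2 group, with log2 changes of -0.01, 0.56 and 0.40. Its unnumbered library was the lowest in each group, whatever the treatment.

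The other members within 100 kb of such a gene varied in their changes. Gm20443, 81877 bases from Ier3, a gene of the immediate early response, had log2 changes of 2.29, 1.12 and 2.37 beside 1.64, 1.55 and 1.91 for Ier3. Gm47599, 28135 bases from Socs2, had 2.68, 3.08 and 3.21 beside 0.57, 0.56 and 0.80 for Socs2. D730003I15Rik lies 41113 bases from Atf3, a transcription factor gene of the stress response, whose log2 change was 6.50 to 7.68 against blank, while the member's was 0.08, 0.03 and -0.45. Gm31522 and Gm11419, which lies within the span of Gm31522 on the other strand, are on the same side of Ccl2, a chemokine gene for monocytes, at 15603 and 46801 bases, with log2 changes of 3.03 to 3.79 for Ccl2, 0.33 to 0.84 for Gm31522 and 0.43 to 0.99 for Gm11419. Gm11110 lies 83549 bases from Tnfsf14 (3.54 to 4.02) and had log2 changes of -0.0031 to 0.23. Pvt1, a neighbour of the oncogene Myc at 47611 bases, was at 2.08 to 5.77 FPKM with log2 changes of -0.05, -0.08 and -0.04, beside 1.04, 0.83 and 0.85 for Myc. None of these neighbours passed the test in any comparison.

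Only 2 neighbours within 100 kb passed the test, both in DNP-HSA+SiO2 vs blank. Fam110c ends 2329 bases from the end of Gm32443 and went from 74.2 to 102 FPKM in the blank group to 345 to 984 in the treated libraries, with log2 changes of 2.93, 3.01 and 3.41 (adjusted p = 0.0333 in the last), beside 3.03, 2.60 and 3.34 for Gm32443. Cd69, which encodes an early activation antigen of leukocytes, lies 28599 bases from 2310001H17Rik and had log2 changes of 2.68, 3.11 and 3.44 (adjusted p = 0.0347 in the last). 2310001H17Rik, named here for that neighbour after its values were seen, was at 8.28 to 27.8 FPKM with log2 changes of -0.43, -0.38 and -0.61 and did not pass.

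Some further pairs, chosen after their values were seen, were high together without passing in edgeR. Gm44226 and 4833403J16Rik overlap each other on opposite strands of chromosome 6, 19 and 1127 bases from Gimap5, a GTPase gene of lymphocyte survival. Their log2 changes for DNP-HSA+SiO2 vs blank were 1.93 and 2.01, with a DESeq2 call for both (adjusted p = 0.00658 and 0.0292), beside 2.72 for Gimap5 (11.4 to 17.9 FPKM in the blank group and 39.1 to 116 in the treated libraries). Gm44226 and 4833403J16Rik share 649 bases in reverse, 54.3% and 62.9% of a transcript. The sources used here do not say whether counting used strand, and without it the reads of this stretch cannot be told apart. Zswim4, 1068 bases from Gm26532, had log2 changes of 3.12, 2.80 and 3.10. 4833419F23Rik starts 542 bases from Map3k8, a kinase gene upstream of ERK, on the other strand, and had log2 changes of 2.16, 0.83 and 2.39 beside 6.46, 4.54 and 6.51 for Map3k8. Other members had neighbours whose log2 changes were near 0: Stxbp5 (above), Mrpl42 on the other side of Gm47599 (0.18, 0.03 and -0.04) and Atxn1, 244 bases from 5033430I15Rik (0.07, 0.09 and 0.20).

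**Figure D5:**
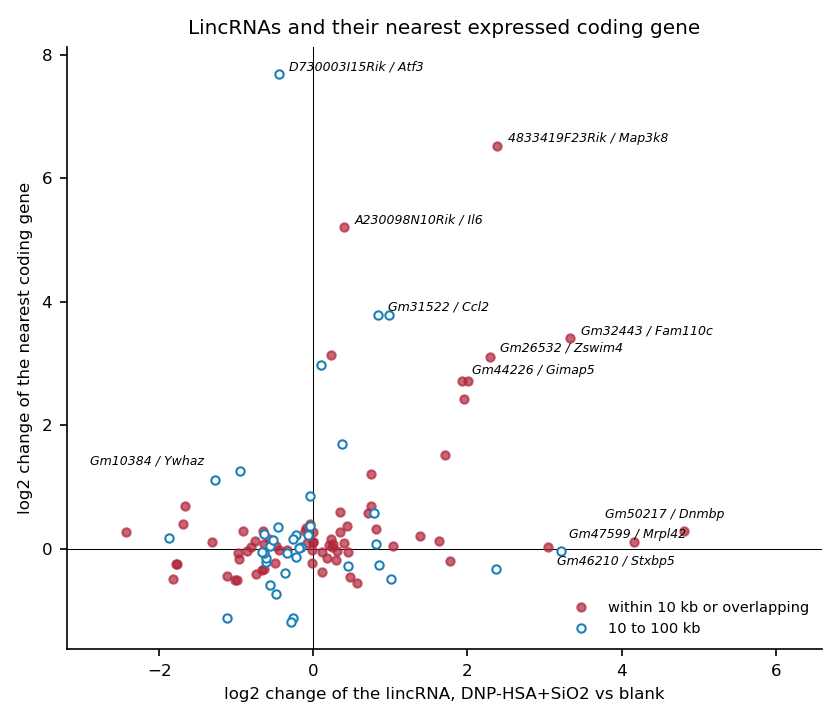
Log2 change in DNP-HSA+SiO2 vs blank of each member (x axis) and of its nearest expressed coding gene (y axis), for the 109 members with one within 100 kb. Filled points are pairs within 10 kb or overlapping. Pairs such as Gm32443 and Fam110c lie high on both axes, A230098N10Rik and Il6 only on the y axis, and Gm46210 and Stxbp5 only on the x axis.

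The lists of known lincRNAs held 3 of 4 X inactivation RNAs as members, 2 of 2 nuclear body RNAs, 6 of 23 small nucleolar RNA hosts, 2 of 14 microRNA hosts, 4 of 24 growth, p53 or stress RNAs and 0 of 16 immune RNAs, and edgeR called 0 of these members in any comparison. Some listed RNAs were absent from the table, and 16, 5, 9 and 2 of the last 4 lists passed the filter of the test. Tested RNAs that are no members failed the level or the biotype rule, so these counts are not counts of expressed RNAs. DESeq2 called Lncpint for DNP-HSA+SiO2 vs blank (adjusted p = 0.0453). Malat1 and Neat1 had log2 changes of -0.42 to 0.15 against blank. Of the X inactivation RNAs, Xist had -0.10 to 0.03, and Jpx and Ftx, its activators, stayed at 0.379 to 3.23 FPKM. The small nucleolar RNA hosts among the members were Epb41l4aos (7.17 to 12.6 FPKM), Snhg6 (3.61 to 7.90), Snhg10 (1.06 to 3.91), Snhg12 (3.29 to 22.2), Snhg15 (5.92 to 24.6) and Snhg20 (4.11 to 27.5). Of 4 members known for growth, p53 or stress, Pvt1 is described above, 2900097C17Rik (Norad, which binds Pumilio proteins in human cells) was at 18.5 to 44.6 FPKM and Morrbid, a regulator of myeloid cell lifespan in mice, at 8.96 to 15.9. Lncpint, which p53 induces in mouse cells, was at 0.734, 0.348 and 1.73 FPKM in the blank group and at 5.74, 5.39 and 1.92 in the DNP-HSA+SiO2 group (log2 2.15, SE 0.74, adjusted p = 0.247). The libraries of both groups did not overlap. Lncpint reached 2 FPKM only in 6 treated libraries, so it is a member through the groups where it was high.

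The microRNA hosts were uneven. Mir142hg, host of a microRNA of blood cells, was at 50.0, 0.604 and 74.7 FPKM in the blank group, 38.0, 0 and 7.91 in the SiO2 group, 0, 2.20 and 0 in the DNP-HSA group and 16.2, 0 and 0 in the DNP-HSA+SiO2 group. It had 5 values of 0, with a high library in the same group under SiO2 and under both agents, its listed transcript is only 269 bases long, and the log2 change of -5.56 (SE 2.9) for DNP-HSA vs blank did not pass (adjusted p = 0.786). Mir17hg was at 0.886 to 4.62 FPKM, with log2 changes of 0.97 (SE 0.58) for SiO2 vs blank and 0.76 (SE 0.58) for DNP-HSA+SiO2 vs blank, neither called.

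Some members were set apart by the library's number and not by the group. The 4 unnumbered libraries did not overlap the 8 numbered ones for 16 members (11.9%), 8 higher and 8 lower, against 9.81% of all genes. Gm42047 was at 172 to 221 FPKM in the unnumbered libraries and at 19.1 to 53.1 in the numbered. Snhg12 was at 12.1 to 22.2 against 3.29 to 7.35 FPKM, Snhg15 at 19.1 to 24.6 against 5.92 to 10.8, Gm44659 at 15.1 to 22.9 against 1.62 to 8.22, Gm7967 at 2.10 to 3.43 against 0.573 to 1.25 and Gm28187 at 57.9 to 67.7 against 10.9 to 42.0. On the lower side, Gm41381 was at 0 to 0.138 against 0.674 to 4.70 FPKM, Gm13431 at 0 to 0.847 against 1.45 to 4.16, Gm35189 at 0.467 to 1.49 against 2.23 to 8.73, Gm36738 at 1.87 to 4.06 against 5.31 to 16.4, A230098N10Rik at 1.53 to 2.67 against 5.14 to 10.0 and Gm36684 at 1.92 to 2.77 against 4.84 to 11.2. The sources used here do not say what the missing number stands for, and each group holds 1 such library. Of 25 markers of mast cells, basophils and other blood cells, 3 were higher in the unnumbered libraries without overlap in FPKM: Mcpt4 (9.47 to 11.5 against 0.398 to 1.01), Mcpt8 (20.7 to 24.3 against 0.774 to 5.32) and Adgre1 (3.94 to 5.56 against 0.542 to 2.61). In 5 they were lower, namely Cma1, a mast cell chymase gene (3698 to 4281 against 7249 to 11650), Lyz2, Csf1r, Hbb-bs and Hba-a1. The part of these in the members' levels was not tested.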

How the data were processed

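Poly(A) RNA of 12 BMMC libraries (4 groups of 3) was sequenced as pairs of 150 bases. In the submitters' processing notes stand StringTie 1.3.4d, HISAT2 2.0.4 and cutadapt 1.9, besides edgeR and DESeq2, with no roles. The authors deposited 1 table of 84846 isoforms with FPKM values and estimated counts per isoform. The sources used here do not give the build, and 84070 isoforms equal GENCODE M21 coordinates (GRCm38). FPKM and estimated counts were summed per gene. Library sums were 55737606 to 76718065 counts. Estimated counts were rounded and tested with edgeR 4.0.16 (TMM, trended dispersion, robust) in R 4.3.3, over genes at 1 FPKM or more in 3 libraries, with the group as the only term. The SE given with an edgeR log2 change was derived as its absolute value divided by the square root of the F statistic. Alternatives used DESeq2 1.42.0, limma 3.58.1 and other filters. The sources used here name no test for these data. The fit was also run on simulated counts with the same dispersion for all genes and changes under SiO2 only. Those counts held no spread shared across groups, so the run does not test the fit on libraries such as these.

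The members and lists were chosen with earlier results of these data known. Members were named where called, among the 10 highest means, in lists of known lincRNAs, among the up to 6 largest changes each way per comparison without overlap and with an unadjusted p under 0.05, or set apart by library number (up to 6 each way). Deviations from the group mean of same-numbered libraries correlated at 0.58 to 0.60 between the blank and SiO2 groups and at 0.30 to 0.57 between the DNP-HSA and DNP-HSA+SiO2 groups. The titles are the only source of this pairing. Sequence identity was searched with BLAST 2.17.0 in GENCODE transcripts.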

Additional observations from a re-analysis of the deposited data

How the results depend on the processing

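The number of members depends on the level rule: 206 at 1 FPKM, 71 at 5 FPKM and 50 where all 12 libraries had to reach 2 FPKM. DESeq2 called more members than edgeR: 6 for SiO2 vs blank, 8 for DNP-HSA vs blank, 13 for DNP-HSA+SiO2 vs blank, 2 for the interaction and 8 for any difference, beside 277, 309, 592, 36 and 343 of all genes (4 of all genes and 0 members for DNP-HSA+SiO2 vs DNP-HSA), where edgeR called 8, 28, 74, 3 and 6. The cause was not tested. With no filter on low values 1 member was called for SiO2 vs blank and 2 for DNP-HSA vs blank (16 of all genes for SiO2). With limma on log2(FPKM + 0.1) it was 1 for SiO2 vs blank, 2 for DNP-HSA vs blank, 3 for DNP-HSA+SiO2 vs blank (Gm46210, Gm47599 and Gm50217) and 1 for any difference (42, 59, 103 and 57 of all genes). With limma on log2(FPKM + 1) it was 1 for any difference (49 of all genes, and 30 and 47 for SiO2 and DNP-HSA vs blank), and with counts divided by 4 also 1 (10 of all genes). Without the 4 unnumbered libraries 0 members were called for DNP-HSA+SiO2 vs blank (22 of all genes), and 0 of all genes for SiO2 vs blank, the interaction and any difference, while 54 were for DNP-HSA vs blank. Without blank 1, SiO2 1, DNP-HSA 2 and DNP-HSA+SiO2 2, chosen after seeing the data, 0 members were called for DNP-HSA vs blank and 0 for DNP-HSA+SiO2 vs blank (1 and 2 of all genes, and 1 each for SiO2 vs blank, the interaction and any difference). Leaving out 1 library at a time gave 0 to 1 called members for SiO2 vs blank, 0 to 2 for DNP-HSA vs blank, 0 to 3 for DNP-HSA+SiO2 vs blank, 0 for DNP-HSA+SiO2 vs DNP-HSA and the interaction, and 0 to 1 for any difference. Within 10 kb (71 pairs), r between members and neighbours was 0.36 for SiO2 vs blank, 0.37 for DNP-HSA vs blank and 0.43 for DNP-HSA+SiO2 vs blank. For DNP-HSA+SiO2 vs DNP-HSA it was 0.16. Adjacent coding pairs within 10 kb had 0.19, 0.15, 0.18 and 0.08 in the same order, and the difference was not tested. Of 554 values for 34 log2 changes of named members under all alternatives, 509 kept their side of the threshold, 18 lost it, 27 gained it and 0 reversed. Most of the 509 were changes not called in the main fit that stayed uncalled. Only the 3 calls of the main fit could be lost. Of 16 alternatives each, Gm46210 stayed called in 11 for DNP-HSA vs blank and in 11 for DNP-HSA+SiO2 vs blank. Gm50217 stayed called in 8 for DNP-HSA+SiO2 vs blank.

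With the replicate block within the blank and SiO2 pair and the DNP-HSA and DNP-HSA+SiO2 pair, 0 members were called for SiO2 vs blank (4 of all genes, against 8 without the block), 0 for DNP-HSA+SiO2 vs DNP-HSA and 0 for the interaction (0 of all genes, against 3), so this block changed no call of a member. The other comparisons share the numbers, but the deviations follow the number only for the unnumbered libraries. For the blank and DNP-HSA groups they correlated at 0.68 for the unnumbered pair, at -0.11 and -0.097 for numbers 1 and 2, and at 0.54 for blank 1 with DNP-HSA 2 and for blank 2 with DNP-HSA 1. For the blank and DNP-HSA+SiO2 groups these crossed pairs correlated at 0.45 and 0.53. Nothing in the titles crosses the numbers, and no crossed block was fitted. The replicate block over all 12 libraries called 3 members for DNP-HSA vs blank (66 of all genes) and 3 for DNP-HSA+SiO2 vs blank (101 of all genes), Gm26532 among them both times (adjusted p = 0.0357 and 0.0280).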

Other observations

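On chromosome 5 the members Gm38102 and 4932422M17Rik lie within the span of AI480526, on the other strand, and were chosen for description after their values were seen. AI480526 was at 31.9, 13.7 and 42.0 FPKM in the blank group, 4.87, 9.21 and 26.6 in the SiO2 group, 8.81, 15.5 and 2.74 in the DNP-HSA group and 2.70, 11.9 and 6.18 in the DNP-HSA+SiO2 group. Gm38102 ranged from 0.734 to 19.8 FPKM, and 4932422M17Rik from 1.20 to 22.0, with blank 2 the highest library for all 3. Reads of such overlapping genes can be told apart only where counting uses strand, and the sources used here do not say whether it did. None of the 3 was called in any comparison.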
